A study of Drosophila melanogaster with 3 samples.

Results

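The transfer RNA genes of Drosophila melanogaster were examined in a chromatin immunoprecipitation sequencing (ChIP-seq) map of the DM-domain transcription factor dmrt11E. The members were all genes of biotype tRNA on arms 2L, 2R, 3L, 3R and X and chromosome 4 of the Ensembl annotation of assembly dm6, which gave 290 of 18164 annotated genes. Of these, 41 lay on 2L, 98 on 2R, 48 on 3L, 79 on 3R and 24 on X, and none on chromosome 4. The material was whole embryos of mixed sex, aged 2 to 10 h per the source name, from 1 transgenic line that stably carries dmrt11E with a C-terminal GFP, and the immunoprecipitation used an anti-GFP antibody. All 3 biological replicates belonged to the same group, no other genotype, treatment or stage was compared, and no immunoprecipitation without the tag was analysed here. The whole embryo mixes all cell types present at that age, so a peak does not tell in which cells the factor was bound. The labels also carry an age field, whose number is no possible embryo age. Each replicate list and the list from the pooled replicates held 30000 peaks, and 6706 pooled peaks passed the authors' irreproducible discovery rate (IDR) threshold. These were the 6706 highest signals of the pooled list, and read depth is unknown. A signal is the authors' own value on a scale of its own in each list, so peaks are given by rank within a list, with rank 1 the highest signal. A tRNA gene was counted where a peak summit lay within 500 bp of it, and the 6706 highest signals of each replicate are called its top peaks.

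Transfer RNA genes are transcribed by RNA polymerase III from a promoter inside the gene, made of an A box and a B box. The factor TFIIIC binds these boxes and places TFIIIB just upstream of the start, and TFIIIB then recruits the polymerase. Most tRNA species are encoded by several gene copies, many of them identical and many lying close together, so that neighbouring genes can share a peak and short reads from identical copies cannot be assigned to 1 of them. The DM domain is a DNA-binding domain built around zinc ions, and doublesex is its best known Drosophila member.

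The sequences show the gene with the B box (GTTCNANNC, searched on the gene's strand) in capitals for the 2 loci of highest signal and for 4 genes that held a pooled summit within their own sequence. They were read 5′ to 3′ on the gene's strand from the RefSeq copy of dm6, at 3R:8669081-8669174 (minus strand), X:3427452-3427523 (minus), 2L:8683806-8683877 (minus), 3R:8862933-8863005 (plus), 2L:2013179-2013250 (minus) and 3L:770363-770462 (plus).
tRNA:Tyr-GTA-1-8: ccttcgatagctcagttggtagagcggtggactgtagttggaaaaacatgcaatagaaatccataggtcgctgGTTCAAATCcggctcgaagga
tRNA:Gln-TTG-2-1: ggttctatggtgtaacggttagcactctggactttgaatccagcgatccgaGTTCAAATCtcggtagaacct
tRNA:Asp-GTC-1-9: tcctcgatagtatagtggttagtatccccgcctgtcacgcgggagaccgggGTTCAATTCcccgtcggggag
tRNA:Arg-TCG-2-4: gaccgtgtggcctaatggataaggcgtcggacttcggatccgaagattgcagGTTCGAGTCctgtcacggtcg
tRNA:Gln-CTG-2-5: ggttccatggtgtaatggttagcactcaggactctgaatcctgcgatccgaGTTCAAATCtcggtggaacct
tRNA:Ile-TAT-1-2: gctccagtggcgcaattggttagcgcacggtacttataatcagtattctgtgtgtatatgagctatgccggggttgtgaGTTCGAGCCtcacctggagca

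The windows of 101 bp centred on the IDR summits at the 2 strongest loci and at the strongest locus beside a ribosomal protein gene are shown on the strand of the tRNA gene, because the summits lay outside the genes. They are at 3R:8669312-8669412, X:3427712-3427812 and X:6744235-6744335 of dm6. None of the 3 windows held ACAANGT, a core of DM-domain sites, on either strand, so no letters are in capitals.
tRNA:Tyr-GTA-1-8 summit: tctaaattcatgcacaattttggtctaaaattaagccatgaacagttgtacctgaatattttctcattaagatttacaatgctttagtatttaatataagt
tRNA:Gln-TTG-2-1 summit: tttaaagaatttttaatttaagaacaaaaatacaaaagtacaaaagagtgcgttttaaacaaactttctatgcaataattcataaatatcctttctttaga
tRNA:Phe-GAA-1-2 summit: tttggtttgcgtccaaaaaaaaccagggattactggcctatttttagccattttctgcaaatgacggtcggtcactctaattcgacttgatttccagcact

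Few tRNA genes lay at an IDR peak. A summit of the IDR list was within 500 bp of 21 of 290 tRNA genes, or 7.24% (exact binomial 95% interval 4.54 to 10.9%), against 27.0% of all 18164 annotated genes and 5.11% of genome tiles of 1073 bp, the width of a tRNA gene with its window. Since neighbouring genes can share a peak, genes at most 5000 bp apart were joined into 144 loci, of which 17 held such a peak. The 21 genes were served by 18 distinct peaks. The pooled list, whose further peaks have lower signal, had a summit within 500 bp of 135 tRNA genes, or 46.6% (40.7 to 52.5%), against 55.6% of all annotated genes and 19.7% of tiles. The shares of all annotated genes count summits anywhere in a gene or within 500 bp of it, so longer genes cover more sequence. Only the tiles match a tRNA gene in width. For protein-coding genes the IDR share was 31.2% counted from the gene and 23.8% counted from its transcription starts. Intervals cover counting error only, and neighbouring genes are not independent.

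In the replicates, a top peak lay near 10.7%, 9.66% and 4.14% of tRNA genes in replicates 1, 2 and 3, or 8.16% ± 3.52 (SD, n = 3), against 5.10%, 5.10% and 5.07% of tiles. Replicates 1 and 2 lay above their tiles and replicate 3 below. Over all replicate peaks, 151, 153 and 98 genes had a summit within 500 bp in replicates 1, 2 and 3, or 46.2% ± 10.8 (SD, n = 3), against 20.2%, 19.5% and 20.2% of tiles, so all 3 replicates lay above. Replicate 3 was the lowest in both counts although the number of peaks was the same in each list. The genes of small nucleolar RNAs, short noncoding genes of another kind, gave 39.4%, 44.6% and 26.0% over all peaks in replicates 1, 2 and 3, with replicate 3 again the lowest. Protein-coding genes gave 63.3%, 60.8% and 62.6% and genes of biotype ncRNA 41.7%, 41.2% and 41.6%, with replicate 2 the lowest in both. A peak was present in all 3 replicates at 63 tRNA genes, in 2 at 68, in 1 at 77 and in none at 82, and a top peak in all 3 at 9 genes.

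Pooled peaks near tRNA genes were spread over the whole range of signal. Of the 3000 highest pooled peaks, 5 had a summit within 500 bp of a tRNA gene, and the count per 3000 ranks was between 6 and 19 in the rest of the list, the highest at ranks 15001 to 18000. The median best rank over the 135 genes was 16353, close to the middle of the 30000 peaks.

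**Figure D1:**
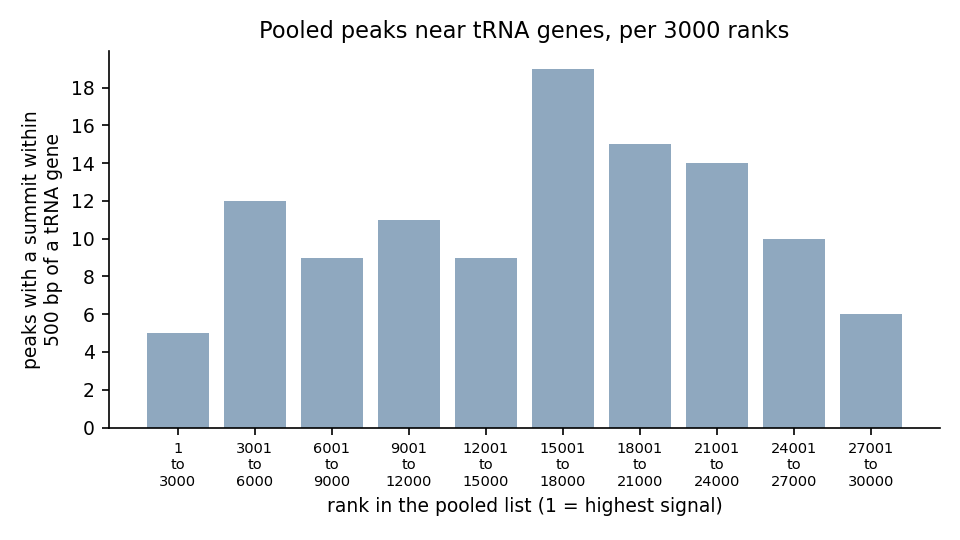
Number of pooled peaks (y axis) with a summit within 500 bp of a tRNA gene, by rank in the pooled list in steps of 3000 (x axis, rank 1 is the highest signal). The first bin holds 5 peaks and the bin of ranks 15001 to 18000 holds 19.

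The IDR peaks at the 17 loci differed widely in rank. The rank given for a replicate is that of the best peak within 500 bp of the tRNA gene in that list, sought without regard to the pooled peak. The strongest was at tRNA:Tyr-GTA-1-8 (FBgn0012024), whose gene sequence is given above and holds an intron. Its pooled rank was 158, and replicates 1, 2 and 3 gave 124, 126 and 232. It was the tRNA locus of highest signal in each of these lists. Its summit lay 188 bp upstream of the tRNA gene and 256 bp from the coding TSS (transcription start site) of CG8036. The tRNA gene itself lay in an intron of CG8036 and of p, a gene of pigment granule trafficking. The neighbouring copies tRNA:Tyr-GTA-1-6 and tRNA:Tyr-GTA-1-7 of the same locus had no pooled summit within 500 bp.

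tRNA:Gln-TTG-2-1 (FBgn0052493), a single gene in an intron of CG12535, was second. Its pooled rank was 285, and replicates 1, 2 and 3 gave 171, 273 and 349. Its summit lay 239 bp upstream of the gene and 8045 bp from the nearest coding TSS, that of CG14269. It was therefore the locus of highest signal among those with no coding TSS within 500 bp.

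tRNA:Ile-AAT-1-9 (FBgn0050215), on 2R outside coding genes, had a pooled rank of 1016 and ranks of 460, 818 and 2571 in replicates 1, 2 and 3, with its summit 490 bp upstream and thus just inside the window. tRNA:Phe-GAA-1-2 (FBgn0052740) had a pooled rank of 1529 and ranks of 1055, 1298 and 2405 in the replicates. That summit lay 186 bp downstream of the tRNA gene but 47 bp from the TSS of RpL17, which encodes a protein of the large ribosomal subunit. Both loci ranked lowest in replicate 3.

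Of the other loci beside a coding TSS, that of tRNA:His-GTG-1-3 (near CG8490) had a pooled rank of 2842 and ranks of 1684, 2412 and 3890 in replicates 1, 2 and 3. tRNA:Trp-CCA-2-2 and tRNA:Gly-GCC-1-9 shared a peak near CG30122 with a pooled rank of 3441 and replicate ranks of 3938, 2444 and 4831. Both loci had a top peak in all 3 replicates. tRNA:Leu-TAA-2-1 (near CG13605) had a pooled rank of 5196 and replicate ranks of 22209, 4875 and 3909, far lower in rank in replicate 1 than in the others.

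tRNA:Trp-CCA-2-6 and tRNA:Gly-GCC-1-13 shared a peak near tud, a gene of germ plasm assembly, with a pooled rank of 5220 and replicate ranks of 6695, 4294 and 7656. tRNA:Asp-GTC-1-4 and tRNA:Asp-GTC-1-5 shared one near Sema1a, an axon guidance gene, with a pooled rank of 5472 and replicate ranks of 3914, 4995 and 8956. Replicate 3 was the lowest at both. tRNA:Pro-CGG-2-1 in an intron of Bx, which encodes a LIM-only protein, had a pooled rank of 5490 and replicate ranks of 7391, 5233 and 5560. tRNA:Thr-AGT-1-4 in an intron of CG31279 had a pooled rank of 5940 and replicate ranks of 4287, 4539 and 12104. The last of these genes had a top peak in replicates 1 and 2 and not in replicate 3.

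Of the other loci with no gene beside a coding TSS, tRNA:Glu-TTC-1-5 had 2 IDR peaks, of pooled ranks 3074 and 5806, and its best replicate ranks were 1550, 2278 and 7129. tRNA:Gly-TCC-2-2, a single gene, had a pooled rank of 3251 and replicate ranks of 1516, 3589 and 6452. tRNA:Lys-TTT-1-1, in an intron of the tyrosine kinase gene Btk, had a pooled rank of 4078 and replicate ranks of 4415, 5155 and 3286. It was the only 1 of the 9 genes with a top peak in every replicate whose rank was highest in replicate 3.

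tRNA:Arg-CCT-1-2 and tRNA:Arg-CCT-1-3 shared a peak of pooled rank 4459 and replicate ranks of 3739, 3683 and 8492. tRNA:Gly-GCC-1-2 had a pooled rank of 5501 and ranks of 16932 and 5156 in replicates 1 and 3, and tRNA:Phe-GAA-1-6 a pooled rank of 6554 and ranks of 11426 and 5438 in replicates 1 and 2. Neither of these had a peak within 500 bp in the remaining replicate.

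All 9 tRNA genes with a top peak in every replicate had an IDR summit, and 5 of the 9 lay beside a coding TSS. Of the 20 IDR genes with a peak in both replicates 1 and 3, 16 ranked higher in replicate 1. The genes tRNA:Gly-GCC-1-2 and tRNA:Phe-GAA-1-6, which lacked a peak in 1 replicate, sat at the edge of the window: their summits lay 487 and 498 bp from the gene. Just outside it, the IDR summits nearest to tRNA:Leu-CAA-2-2, tRNA:Arg-TCT-1-1 and tRNA:Glu-TTC-1-6 lay 538, 567 and 577 bp away.

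**Figure D2:**
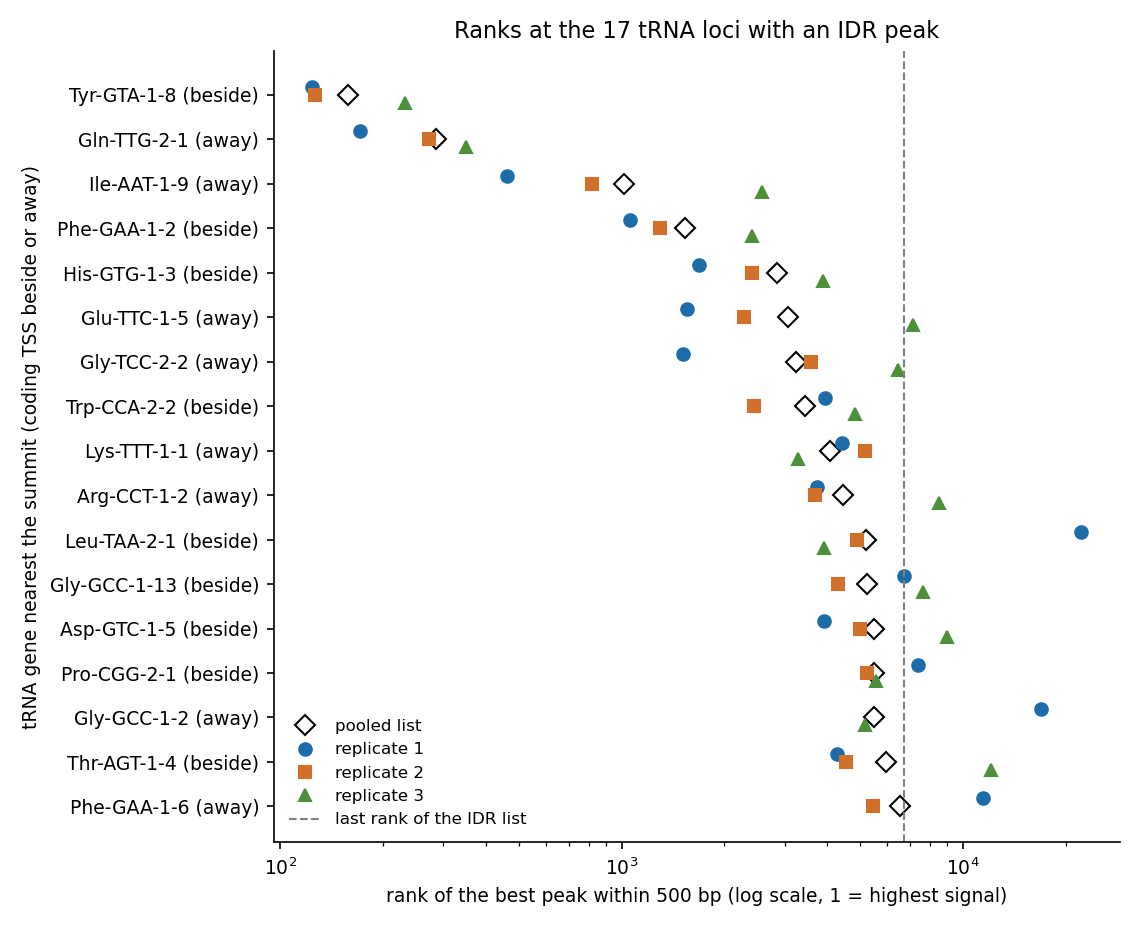
Rank of the best peak within 500 bp (x axis, log scale) at the tRNA gene nearest the IDR summit of each of 17 loci (y axis), in the pooled list (open diamonds) and in each replicate (filled marks), with a dashed line at rank 6706. Ranks run from 158 at Tyr-GTA-1-8 to 6554 at Phe-GAA-1-6 in the pooled list, and a missing mark means no peak within 500 bp.

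Genes beside a coding TSS (within 500 bp) made up 33 of the 290 tRNA genes and 10 of the 21 with an IDR summit. Among the 33, these 10, or 30.3% (exact 95% interval 15.6 to 48.7%), had an IDR summit, against 15.6% of tiles with a coding TSS. Of the 257 genes away from a coding TSS, 11, or 4.28% (2.16 to 7.53%), had one, against 3.66% of tiles without a coding TSS, a value within that interval. Among coding TSSs, 10 of the 31 with a tRNA gene within 500 bp had an IDR summit within 500 bp, or 32.3%, against 21.3% of all 19252. In the replicates, a top peak lay at 9, 10 and 7 of the 33 genes beside a coding TSS and at 22, 18 and 5 of the 257 others. A top peak lay in 16.3%, 15.9% and 15.2% of tiles with a coding TSS and in 3.55%, 3.61% and 3.66% of tiles without one. Genes away from a coding TSS were above their tiles in replicates 1 and 2, at 8.56% and 7.004%, and below in replicate 3, at 1.95%. The difference between both groups of tRNA genes was 18.7, 23.3 and 19.3 percentage points, or 20.4 ± 2.50 (SD, n = 3), higher in 3 of 3 replicates (exact sign-flip permutation test, two-sided, p = 0.25). With 3 replicates 0.25 is the smallest p this test can give, so none of the tests here can pass 0.05. Each replicate was also left out in turn. An IDR peak was then kept only where a top peak of both other replicates overlapped it reciprocally by at least 50%. IDR peaks matched only by replicate peaks of lower rank were thus dropped. The difference in the IDR list was then 7.92, 4.89 and 11.6 points without replicates 1, 2 and 3.

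The clustered genes, those with another tRNA gene within 5000 bp, numbered 214, and single genes 76. How they compared depended on how far down the lists peaks were counted. A top peak lay at 11.2%, 9.35% and 1.87% of clustered genes and at 9.21%, 10.5% and 10.5% of single genes in replicates 1, 2 and 3. The difference, clustered minus single, was −2.61 ± 5.47 percentage points (SD, n = 3), smaller than the spread between replicates (exact sign-flip permutation test, p = 0.75), and 0.412 without replicate 3. Away from coding TSSs, 17, 14 and 0 of 188 clustered genes and 5, 4 and 5 of 69 single genes had a top peak in replicates 1, 2 and 3. In the IDR list 12 clustered genes (5.61%) and 9 single genes (11.8%) had a summit, with overlapping exact intervals of 2.93 to 9.59% and 5.56 to 21.3%. Over loci, 8 of 68 clustered and 9 of 76 single loci had one.

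Over all peaks, a summit lay at 57.9%, 59.8% and 36.4% of clustered genes and at 35.5%, 32.9% and 26.3% of single genes. Clustered genes were higher in 3 of 3 replicates, by 22.4, 26.9 and 10.1 percentage points, or 19.8 ± 8.69 (SD, n = 3; exact sign-flip permutation test, p = 0.25, the smallest it can give). Among genes with no coding TSS within 500 bp, the difference was 23.7 ± 10.1 points (SD, n = 3). In the pooled list 101 of 188 such clustered genes, or 53.7% (exact 95% interval 46.3 to 61.0%), and 16 of 69 such single genes, or 23.2% (13.9 to 34.9%), had a summit, against 16.6% of tiles without a coding TSS. For comparison, 42.5% of tiles with a coding TSS held a pooled summit. Pooled peaks were also kept only where a peak of any rank in both other replicates overlapped them reciprocally by at least 50%. This lowered the difference between all clustered and all single genes from 25.6 points. It was 5.53, 3.75 and 9.53 points without replicates 1, 2 and 3. The median best pooled rank was 16760 in the clustered genes away from a coding TSS that had a summit.

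**Figure D3:**
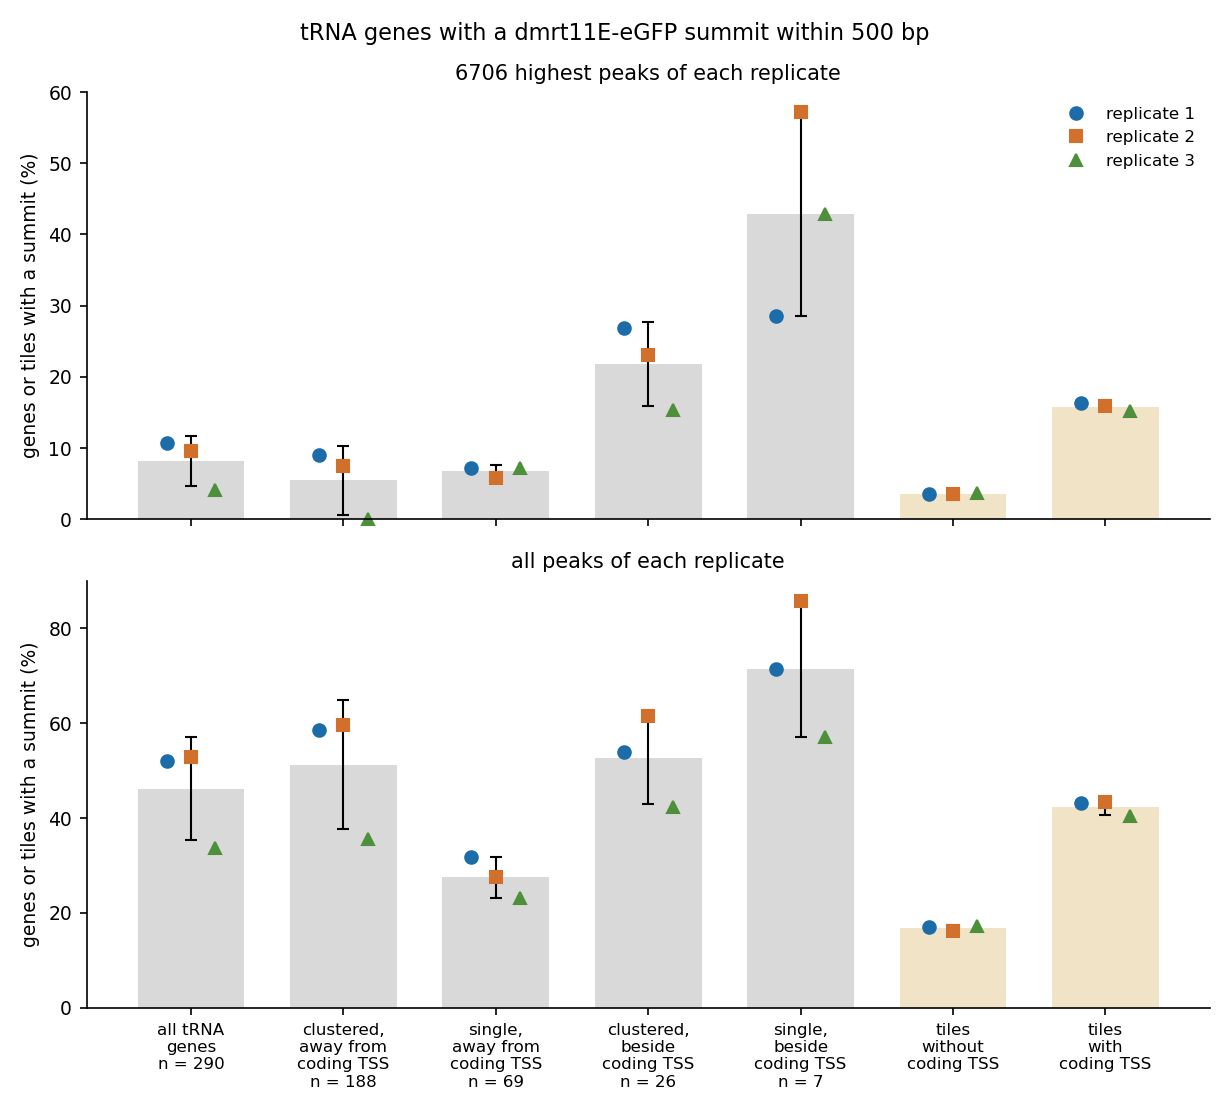
Share of genes or genome tiles with a summit within 500 bp (y axis, percent) for the top peaks (upper panel) and all peaks (lower panel) of each replicate; bars are means, error bars are SD over 3 replicates, points are replicates, and the cream bars are tiles with and without a coding TSS. In the lower panel clustered genes away from a coding TSS (mean 51.2%) lie above single ones (mean 27.5%) in each replicate.

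None of the 18 distinct IDR summits was inside a tRNA gene. The genes cover 22026 bp and the IDR list has 0.0501 summits per kb of the arms, so that a count of 0 inside is near the background. At 1 to 500 bp from tRNA genes the IDR density was 0.0852 per kb, and 0.0482 per kb for genes with no coding TSS within 500 bp. Their median distance from the nearest one was 228 bp, with 10 upstream and 8 downstream. A coding TSS was nearer than the tRNA gene for 6 of the 18 summits and lay within 500 bp of 9.

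The pooled list, in contrast, held 18 summits inside tRNA genes, and all 18 were in clustered genes. Per length this was 1.11 summits per kb inside clustered genes, 0.503 per kb at 1 to 500 bp, 0.384 per kb at 501 to 1000 bp and 0.461 per kb at 1001 to 2000 bp, against 0.224 per kb over the arms. Around single genes the pooled values were 0 inside, 0.316, 0.355 and 0.276 per kb at the same distances. The regions around clustered genes and those around single genes both had more summits per length than the arms as a whole out to 2000 bp.

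The replicates differed in the summits inside clustered genes. The density inside was 0.987, 0.925 and 0.370 per kb in replicates 1, 2 and 3, and that at 1001 to 2000 bp was 0.467, 0.396 and 0.415 per kb. Inside was higher in replicates 1 and 2 and lower in replicate 3, a mean difference of 0.335 ± 0.329 per kb (SD, n = 3; exact sign-flip permutation test, two-sided, p = 0.5). Inside single genes the replicates held 1, 3 and 1 summits, or 0.287 ± 0.199 per kb (SD, n = 3), against 0.296 ± 0.0301 per kb at 1001 to 2000 bp. Replicates 1 and 2 held 17 and 18 summits inside all tRNA genes and replicate 3 held 7. Of the best pooled peaks with a summit inside the gene, those at tRNA:Arg-TCG-2-4 (rank 7940), tRNA:Asp-GTC-1-9 (9837) and tRNA:Gln-CTG-2-5 (11949), were printed above, and none of the summits inside a gene was in the IDR list.

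**Figure D4:**
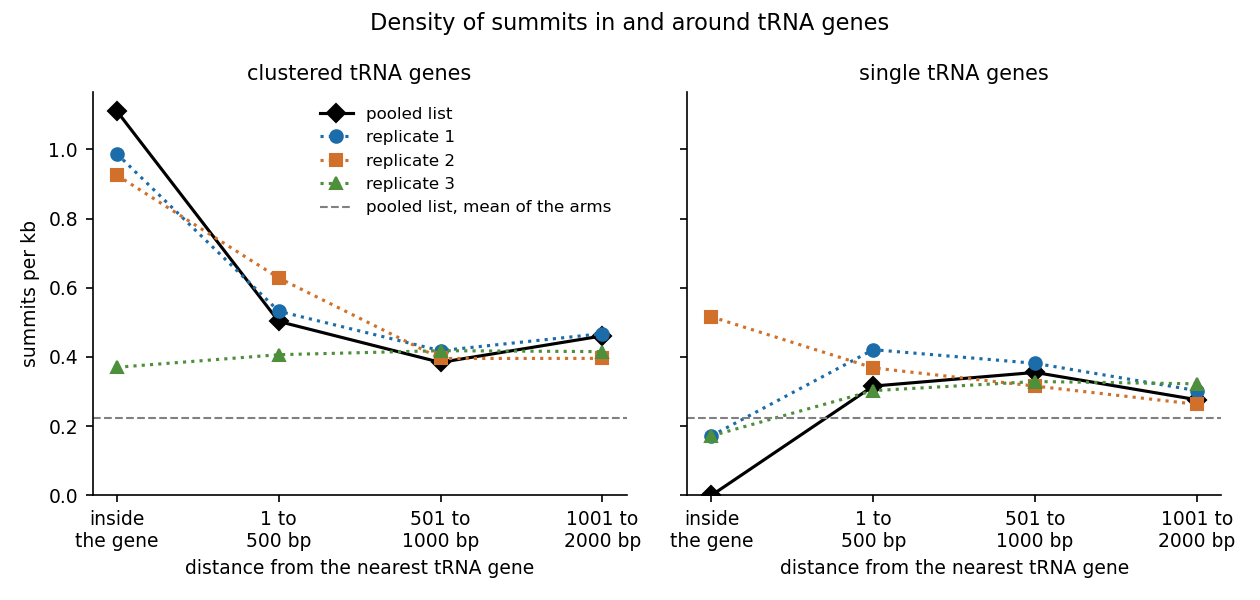
Summits per kb (y axis) inside tRNA genes and at 3 ranges of distance from the nearest one (x axis), for clustered (left) and single genes (right), in the pooled list (solid line) and each replicate (dotted lines); the dashed line is the mean of the arms in the pooled list. Inside clustered genes replicates 1 and 2 and the pooled list lie between 0.925 and 1.11 per kb and replicate 3 at 0.370.

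Among the loci with the most tRNA genes, the locus of 11 genes on 2R that starts with tRNA:Arg-ACG-1-2 and holds asparagine, lysine, arginine and isoleucine tRNA genes had pooled summits near 2 of its genes, and summits near 5 genes in replicate 1, 9 in replicate 2 and none in replicate 3. The strongest summit within this locus on 2R lay just over 500 bp from the nearest of its genes in the pooled list, and is not counted. Its pooled rank was 8379. The strongest in replicates 1, 2 and 3, also more than 500 bp from any gene, ranked 5116, 8326 and 22669. The 11-gene locus on 3R that starts with tRNA:Val-CAC-1-1 had pooled summits at 5 genes. In replicates 1, 2 and 3 summits lay at 4, 7 and 1 of its genes. In both, replicate 2 covered the most genes and replicate 3 the fewest.

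Of the loci with 7 genes, the 1 that starts with tRNA:iMet-CAT-1-1, on 2R, and holds initiator methionine and glutamate tRNA genes, had the most genes near a summit. Pooled summits reached all 7 of its genes, and replicates 1, 2 and 3 reached 7, 7 and 6. Its best pooled peak ranked 3074, and the best replicate peaks ranked 1550, 2278 and 7129. No gene of the locus lay within 500 bp of a coding TSS. The locus of tRNA:Ile-AAT-1-3 in an intron of ATP8A, a phospholipid flippase gene, had pooled summits at 6 of 7 genes, and summits at 4, 3 and 2 genes in replicates 1, 2 and 3. The locus of tRNA:Arg-TCG-2-1 on X had pooled summits at 3 of 7 genes, and summits at 3 genes in each replicate.

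**Figure D5:**
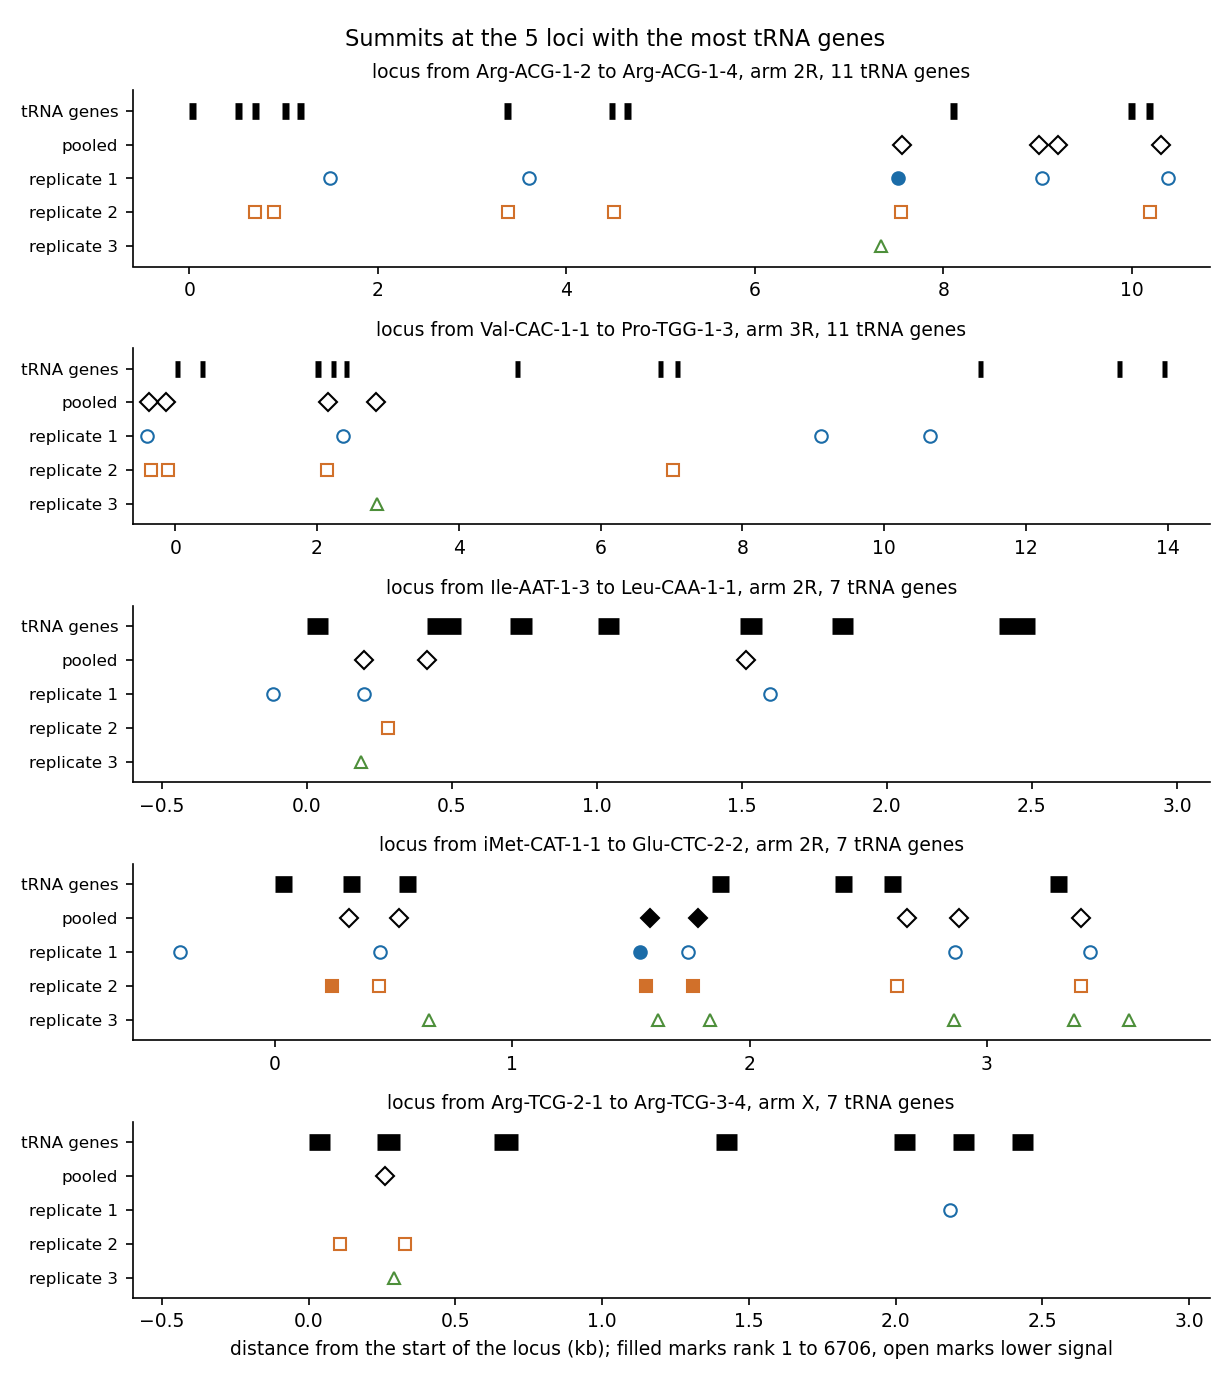
Positions of tRNA genes (black bars) and of summits in the pooled list and each replicate (marks) along the 5 loci with the most tRNA genes, as distance from the start of the locus (x axis, kb). Filled marks rank 1 to 6706; the iMet-CAT-1-1 locus has 2 filled pooled marks, of rank 3074 and 5806, and the other 4 loci have none.

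By location, 5 of 127 tRNA genes in a coding gene's intron (3.94%), none of 7 in a coding exon and 16 of 156 outside coding genes (10.3%) had an IDR summit. Of all genome tiles, 5.11% had one. No separate background of introns or of sequence outside coding genes stands beside these counts. Closeness to a coding TSS was not held fixed, so its part in the differences by location was not tested. In the replicates, the share with a top peak was lower in introns than outside coding genes in 3 of 3, with differences of −2.09, −7.95 and −1.98 percentage points (exact sign-flip permutation test, two-sided, p = 0.25). The difference over all peaks was −7.88, 1.62 and −10.1 points, with no common direction. By arm, the share with a pooled summit was 62.2% on 2R, 43.9% on 2L, 43.8% on 3L, 35.4% on 3R and 29.2% on X. The tiles of these arms gave 18.9%, 20.8%, 20.8%, 17.8% and 21.2% in the same order. No gene of the 48 on 3L had an IDR summit, against 5.44% of that arm's tiles.

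The tRNA species differed in number and in neighbourhood, so only their counts are given. An IDR summit lay at 4 of 20 glycine, 2 of 8 tryptophan, 2 of 8 phenylalanine, 2 of 14 aspartate and 2 of 26 arginine genes. No other amino acid had more than 1 gene with one, and there was none among the alanine, asparagine, cysteine, methionine, serine, valine or selenocysteine genes. With 7.24% of all tRNA genes at an IDR summit, counts this small do not set a species apart. Among the initiator methionine tRNA genes, which start translation, 5 of 6 had a pooled summit and none an IDR summit, with a summit at 5, 5 and 2 genes in replicates 1, 2 and 3. The selenocysteine tRNA gene tRNA:SeC-TCA-1-1, the only member for that amino acid, had a pooled summit of rank 13632 and ranks 14127, 25635 and 17134 in replicates 1, 2 and 3. Of 16 genes with an intron, 8 had a pooled summit, near the 46.6% of all tRNA genes, namely 4 of 10 tyrosine, 2 of 4 leucine and 2 of 2 isoleucine genes, and 1, tRNA:Tyr-GTA-1-8, had an IDR summit.

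The gene sequences were repetitive and most held the B box word GTTCNANNC. The 290 genes had 95 distinct sequences, of which 43 occurred 2 or more times and 1 occurred 13 times, and 238 genes had an identical copy elsewhere. A pooled summit lay at 46.6% of genes with an identical copy and at 46.2% of the 52 genes of unique sequence. This word was present on the gene's strand in 271 genes, or 93.4%. Of genome windows of 73 bp, the median gene length, 1.04% held it on 1 strand. The initiator methionine genes and the alanine genes of anticodon AGC were among those without it. Other forms of the B box were not searched, so a gene without this word may still have one. The share of 31-base words in the gene and its 500 bp flanks that recur in the genome had a median of 8.83% in clustered genes and 4.55% in single genes. It was 8.83% in clustered genes with a pooled summit and 8.87% in those without. How the authors treated reads that map to several places is not given in the sources used here, and its part in the result was not tested.

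Within 50 bp of summits, ACAANGT (both strands) was present at none of the 18 IDR summits near a tRNA gene, against 5.58% of all 6706, and at 3 of 110 pooled summits near a tRNA gene, against 5.21% of all 30000 and 5.05% of genome windows of 101 bp. GTTCNANNC was present on either strand at 27 of the 110 pooled summits, or 24.5%. It was at 2.99% of all pooled summits and 2.95% of genome windows, and 18 of the 110 lay inside a tRNA gene. As these summits were picked for lying near tRNA genes, of which 93.4% hold the word, the shares do not compare like with like. No background of other positions near tRNA genes was taken. At 3 of the 18 IDR summits near tRNA genes, or 16.7%, GTTCNANNC was found, against 2.82% of all 6706. None of the 18 lay closer than 56 bp to a tRNA gene, so none of these 3 words was inside one. TATCGATA was at 1, CGATA at 1, GAGAG at 2 and GGTCACAC at none of the 18. Over all 6706 IDR summits, TATCGATA was at 1.19%, CGATA at 14.0%, GAGAG at 6.95% and GGTCACAC at 0.596%. The counts are too few for a comparison of these words.

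Other genes of the polymerase III system were examined in the same way. Of 8 other polymerase III transcripts, snRNA:U6:96Ab and snRNA:U6:96Ac, genes of the U6 spliceosomal RNA, shared an IDR peak of rank 3912, and 5 had a pooled summit. The RNA components of RNase P and RNase MRP had pooled summits of rank 18156 and 16177, and both 7SLRNA genes, of the signal recognition particle, had none in any list. None of 96 genes of 5S ribosomal RNA, whose copies lie in a tandem array, had a summit in the IDR or pooled list. These copies are not independent, and how reads that map to several places were treated is not given in the sources used here.

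Of 16 genes of the polymerase III machinery, 5 had an IDR summit within 500 bp of a coding TSS, against 23.8% of all protein-coding genes counted in the same way, and 14 had a pooled summit, against 51.7%. With 16 genes, the IDR count is near that background. The strongest were Bdp1 and Brf, components of TFIIIB, with pooled ranks of 143 and 245. Bdp1 ranked 337, 228 and 84 in replicates 1, 2 and 3, and Brf 354, 290 and 187. CG7099, a TFIIIC subunit gene by its annotated synonym, had a pooled rank of 271 and ranks of 244, 295 and 276 in the replicates. The polymerase subunit gene Polr3E ranked 436 in the pooled list, and Polr3A and Polr3I had no pooled summit. The promoters of Bdp1, Brf, CG7099 and Polr3E thus ranked with the 2 highest tRNA loci.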

How the data were processed

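The deposited peak lists give for each peak of dmrt11E-eGFP ChIP-seq a position on dm6, a summit and a signal, a score set by the authors on a scale of its own in each list, used here only for rank. Per the labels, peaks were called on each of 3 biological replicates and on the replicates pooled. The tools for alignment and calling were not given in the sources used here. The lists give no read depth. Genes, exons and TSSs came from Ensembl release 115 (BDGP6.54) and sequence from RefSeq's FASTA of that assembly. All coordinates count from 1. Only the 6 arms were used, which left out 1 replicate peak.

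A tRNA gene counted where a summit lay within 500 bp, and tRNA genes with gaps of at most 5000 bp formed a locus. Background tiles were 1073 bp. Shares carry exact Clopper-Pearson 95% intervals. Differences were tested over 3 replicates by exact sign-flip permutation. The pooled and IDR lists share reads with the replicates and are no independent support. The labels number the replicates without naming separate collections. The members, lists and settings were chosen with earlier results of these data known. Genes named are those nearest the summit at the 15 loci of highest IDR signal, at the 10 highest away from coding TSSs (8 existed), genes of the 5 largest loci, initiator, selenocysteine and intron-bearing genes and polymerase III genes; the loci and genes named beyond these were chosen after their values were seen. The search for nearby summits, the joining of genes into loci and the sign-flip test were checked on simulated data, and the other procedures were not. Python 3.11.15, numpy 2.4.6, pandas 2.3.3, scipy 1.17.1 and matplotlib 3.10.9 were used. The values of 1 gene of the polymerase III machinery are not reported here.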

Additional observations from a re-analysis of the deposited data

How the results depend on the processing

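Each value was recomputed with 1 choice changed at a time, and 57 of 112 values stayed within 1 SD of the replicates or within the interval or quartiles of the reported value. The pooled list and all replicate peaks were planned as alternatives to the IDR list and the top peaks, and their use as results with alternatives of their own was added after seeing the data. With a window of 200 bp the shares of tRNA genes with an IDR, pooled, top replicate and any replicate summit were 2.41%, 26.2%, 2.76% and 26.7%, the clustered minus single difference in top peaks was 0.767 points, and the difference beside minus away from a coding TSS was 9.42 points in top peaks and 17.8 in the IDR list. With a window of 1000 bp the same shares were 12.4%, 62.1%, 14.5% and 62.4% and the 2 differences in top peaks 1.80 and 17.9 points. Requiring a peak to overlap the gene gave shares of 0.345%, 24.1%, 1.95% and 24.3%, a clustered difference of 0.865 points and TSS differences of 2.35 points in top peaks and 3.03 in the IDR list. Counting loci gave 11.8% in the IDR list and 12.0% in top peaks, clustered differences of 4.13 points in top peaks, −0.0774 in the IDR list, 38.0 over all replicate peaks and 45.9 in the pooled list, and TSS differences of 23.9 and 30.8 points; a clustered locus covers more sequence than a single one. The 3353 highest replicate peaks gave a share of 2.30% and a TSS difference of 8.80 points. All replicate peaks gave 46.2%, a clustered difference of 19.8 points and a TSS difference of 11.7 points. The 3353 IDR peaks of higher signal gave 2.41% and a TSS difference of 7.53 points, and the pooled list in place of the IDR list gave 46.6%, 25.6 and 9.02 points. A cluster gap of 10000 bp gave a clustered difference of 0.447 points in top peaks. A coding TSS within 200 bp gave TSS differences of 8.62 points in top peaks and 18.01 in the IDR list, and one within 1000 bp 8.29 and 10.7 points. The cause of these changes was not tested.

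Leaving out 1 replicate gave ranges of 1.72 to 4.83% for the IDR share, 17.2 to 24.1% for the pooled share, −4.92 to 0.412 points for the clustered difference in top peaks, 3.75 to 9.53 points for that in the pooled list and 4.89 to 11.6 points for the TSS difference in the IDR list. These settings kept 3514 to 4164 of the 6706 IDR peaks and 13445 to 14439 of the 30000 pooled peaks, which by construction lowers the shares in these lists. Without 1 replicate, the clustered difference over all replicate peaks ranged from 16.3 to 24.7 points. Over every setting tried it ranged from 13.8 points, with a peak overlapping the gene, to 38.0 points, with loci counted, and was positive in each. The clustered difference in top peaks changed sign with the window, unit, gap, depth of list and without replicate 3. With the changes of window and the overlap rule, the median best pooled rank ranged from 12636 to 17093. There was 1 group, so no groups of samples were compared, and differences between sets of genes were taken within each replicate. Read depth is not in the lists, so peaks missing from replicate 3 cannot be told apart from peaks below its list's limit.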
